A study of Homo sapiens with 6 samples.

Results

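Long noncoding RNAs whose introns carry small nucleolar RNAs (snoRNAs) were examined in human colon cancer cells in which the histone mRNA factor SLBP was lowered. The 10 host genes were GAS5, ZFAS1, SNHG1, SNHG3, SNHG5, SNHG6, SNHG7, SNHG8, SNHG12 and EPB41L4A-AS1. They were chosen by name as noncoding hosts of snoRNAs, with earlier results of these data known. On the array 22569 genes had a probe set of their own, among them 3 of the 10. The study compared HCT-shSLBP cells, a derivative of the colorectal carcinoma line HCT116, given doxycycline at 2 µg/ml (3 cultures) with the same cells left untreated (3 cultures). The line is named for a short hairpin against SLBP, the stem-loop binding protein that processes replication-dependent histone mRNAs. All 6 cultures carry the hairpin line, and no doxycycline-treated culture without the hairpin was part of the comparison, so effects of the drug and of the hairpin cannot be told apart. The sources used here give neither the length of the treatment nor the number of clones behind the line.

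snoRNAs guide the chemical modification and processing of ribosomal RNA. Those of the C/D box class direct methylation of ribose, and those of the H/ACA class direct the conversion of uridine to pseudouridine. Most human snoRNAs are cut out of introns, and in a noncoding host the spliced exons have no known protein product. Several such exonic RNAs are nevertheless engaged by ribosomes on short open reading frames and are then degraded by nonsense-mediated decay, so their amounts are known to respond to cell growth and to the rate of translation. GAS5, growth arrest specific 5, was named for its accumulation in cells that have stopped growing.

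Many snoRNA hosts, like the mRNAs of ribosomal proteins, belong to the 5′ terminal oligopyrimidine class, whose transcripts begin with a C followed by a stretch of pyrimidines and whose translation follows growth signals. The sequences around the annotated starts are shown to let the hosts be compared on this feature. Each has 30 bases before and 30 bases from the start given by RefSeq in GRCh38.p14, read 5′ to 3′ on the strand of the gene, and capitals mark the unbroken pyrimidine run where the first transcribed base is C.
GAS5, chr1:173869016-173869075, minus strand: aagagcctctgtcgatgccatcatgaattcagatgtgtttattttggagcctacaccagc
ZFAS1, chr20:49278612-49278671, plus strand: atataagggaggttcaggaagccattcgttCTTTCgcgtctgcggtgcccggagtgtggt
SNHG1, chr11:62855856-62855915, minus strand: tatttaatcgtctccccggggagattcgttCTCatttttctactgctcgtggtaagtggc
SNHG5, chr6:85678704-85678763, minus strand: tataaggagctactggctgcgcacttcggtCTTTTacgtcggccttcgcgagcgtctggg
SNHG7, chr9:136728155-136728214, minus strand: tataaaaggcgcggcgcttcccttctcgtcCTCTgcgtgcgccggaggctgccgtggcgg
SNHG8, chr4:118278732-118278791, plus strand: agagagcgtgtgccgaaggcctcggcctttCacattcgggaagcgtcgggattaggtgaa
SNHG12, chr1:28581844-28581903, minus strand: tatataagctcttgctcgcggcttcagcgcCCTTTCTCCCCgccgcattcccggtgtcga

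The run of pyrimidines was longest in SNHG12, with 11 bases, and had 5 bases in ZFAS1 and in SNHG5, 4 in SNHG7, 3 in SNHG1 and 1 in SNHG8. The annotated starts of GAS5, SNHG3 and EPB41L4A-AS1 do not begin with C. SNHG6, on chromosome 8, was left out of the hosts examined, while the gene groups set beside them were not filtered by chromosome. A start on C that opens a run of at least 5 pyrimidines was found in 3 of the 9 hosts examined, and in 11 of 17 ribosomal protein genes that host snoRNAs and have an entry. It was also found in 4 of 16 other noncoding hosts and in 7 of 23 other coding hosts. The same feature was present in 4.04% of 27305 windows of all genes. The letters CACGTG, the E-box bound by MYC, were looked for on both strands of the 300-base window, from 250 bases before to 50 after the start. They were found in 1 of the 9 hosts, SNHG7, and in 7.43% of all windows. The other groups had them in 1 of 16 noncoding hosts, 1 of 17 ribosomal protein hosts and 5 of 23 other coding hosts. An annotated start may differ from the start used in these cells, and these matches describe the letters alone.

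Before the hosts are described, the arrays were checked on the target. SLBP had log2 signals of 7.38, 7.19 and 7.32 in doxycycline cultures, against 8.09, 8.04 and 8.08 in untreated cultures, a log2 change of -0.77 (SE 0.055, limma adjusted p = 0.00323). Of 12 colon epithelial markers, 9 lay above 4.52, the 95th percentile of 359 olfactory receptor genes, which served as a yardstick for background. Among them were EPCAM, KRT8, KRT18 and KRT19, whereas KRT20, CDH17 and GPA33 were below it. For cells foreign to the culture, 5 of 9 fibroblast markers and 3 of 8 blood and endothelial markers were above the yardstick, and none of these passed limma's test over all genes (1 of 8 fibroblast and 0 of 7 blood and endothelial markers with their own probe set had an unadjusted p under 0.05). Fewer cells of a kind and less RNA per cell cannot be told apart in such bulk samples.

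Of the 10 hosts, 8 had higher signals in every doxycycline culture than in any untreated culture. Their changes ranged from 0.23 to 0.47 on the log2 scale, or 1.18-fold to 1.39-fold. SNHG7 was lower in doxycycline cultures, and SNHG3 had overlapping groups. The median change of the 10 was 0.34, beside -0.02 over all genes. Groups that do not overlap, with doxycycline higher, were seen in 12.9% of all annotated probe sets. By the class of snoRNA they carry, all 5 hosts of C/D box snoRNAs were among the 8, as were 2 of the 4 hosts of H/ACA snoRNAs and the single host of both classes, SNHG12. All 10 lay above the olfactory receptor level, as did 14868 of the 22569 genes with a probe set of their own.

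**Figure D1:**
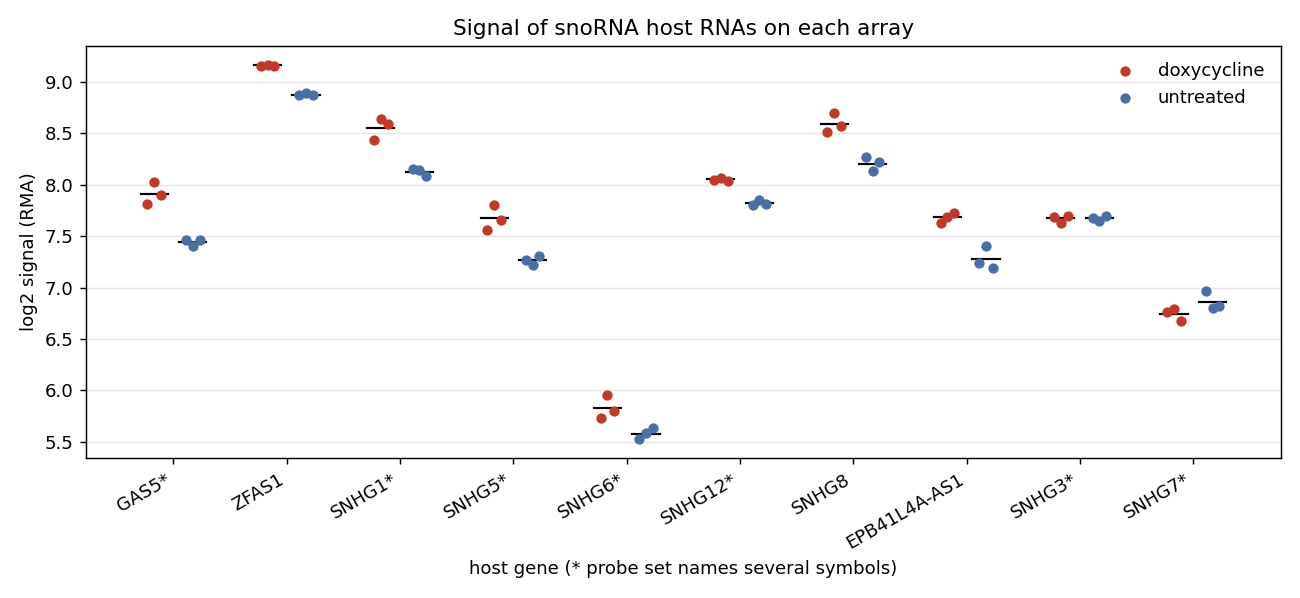
The log2 signal of each host RNA on each array, with doxycycline cultures (red) left of untreated cultures (blue), 3 points per group and a black line at the mean. An asterisk marks probe sets that name other genes beside the host. In 8 of the 10 hosts every red point lies above every blue point.

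What each probe set measures differs among the hosts, and this decides which test applies to them. ZFAS1, SNHG8 and EPB41L4A-AS1 had a probe set that names no other gene. The other 7 shared theirs with further symbols. These were snoRNAs of the same host for GAS5 (8 snoRNAs), SNHG1 (8), SNHG5 (2), SNHG6 (1), SNHG7 (2) and SNHG12 (3), while the SNHG3 probe set also named SNORA73A and RCC1, a protein-coding gene. Values of these 7 therefore belong to the whole transcription unit, in which exons of the host and snoRNAs cannot be told apart. The 3 hosts with their own probe set were tested among all 22569 genes. The 7 were tested among all 70523 probe sets and among the 25324 annotated ones, an alternative added once the values were known.

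ZFAS1, an antisense transcript at the ZNFX1 promoter, carries SNORD12, SNORD12B and SNORD12C. Its log2 signal was 9.16, 9.17 and 9.16 in doxycycline cultures, against 8.87, 8.89 and 8.87 in untreated cultures. The cultures of each group lay almost together, far from those of the other group. ZFAS1 rose by 0.29 on the log2 scale (SE 0.033, limma adjusted p = 0.00865), or 1.22-fold. An exact permutation test on the 6 arrays gave p = 0.1, the smallest that 3 against 3 allow, as it did for every host with groups apart.

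SNHG8, host of the H/ACA snoRNA SNORA24, had 8.51, 8.70 and 8.57 in doxycycline cultures, against 8.27, 8.13 and 8.22 in untreated cultures. It rose by 0.38 (SE 0.061, limma adjusted p = 0.0185). EPB41L4A-AS1, host of SNORA13, had 7.63, 7.69 and 7.73 in doxycycline cultures, against 7.24, 7.40 and 7.19 in untreated cultures. It rose by 0.41 (SE 0.061, limma adjusted p = 0.0162). In both genes the lowest doxycycline culture was clear of the highest untreated culture, by 0.24 for SNHG8 and 0.23 for EPB41L4A-AS1.

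All 3 hosts with their own probe set thus rose, where 2.95% of all genes did. Because the hosts were chosen with earlier results of these data known, this contrast is not an independent test. Of all genes, 98.2% had a lower log2 change than ZFAS1, 99.3% than SNHG8 and 99.5% than EPB41L4A-AS1. Not all of these calls were kept when an array was left out. Those fits have fewer samples, and 64 to 572 of all genes rose in them, beside 665 with all 6 arrays. Across the fits run, the change stayed between 0.28 and 0.31 for ZFAS1, 0.33 and 0.42 for SNHG8, and 0.36 and 0.47 for EPB41L4A-AS1. ZFAS1 lost its call without untreated replicate 3 (limma adjusted p = 0.0502) and without doxycycline replicate 3 (0.0521). SNHG8 lost it without untreated replicate 1 (limma adjusted p = 0.0503), 2 (0.0592) or 3 (0.0704) and without doxycycline replicate 3 (0.0689). EPB41L4A-AS1 lost it without untreated replicate 1 (limma adjusted p = 0.0679) or 3 (0.0614) and without doxycycline replicate 2 (0.0533) or 3 (0.0702). When every probe set was tested on its own, none of the 3 passed (limma adjusted p of 0.0571, 0.0758 and 0.0691 for ZFAS1, SNHG8 and EPB41L4A-AS1), although all 3 had an unadjusted p under 0.05, as did 6.96% of probe sets in the higher direction.

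Among hosts of C/D box snoRNAs, the GAS5 unit had the largest difference. GAS5 had log2 signals of 7.81, 8.03 and 7.90 in doxycycline cultures, against 7.46, 7.40 and 7.46 in untreated cultures, a change of 0.47 or 1.39-fold. SNHG1, which carries a run of C/D box snoRNAs and whose exons yield no protein, had 8.44, 8.64 and 8.59 in doxycycline cultures, against 8.15, 8.14 and 8.09 in untreated cultures, a change of 0.43. SNHG5, host of SNORD50A and SNORD50B, had 7.56, 7.80 and 7.66 in doxycycline cultures, against 7.27, 7.22 and 7.31 in untreated cultures, a change of 0.41. In each of the 3 units doxycycline replicate 1 was the lowest and replicate 2 the highest treated culture, and the treated cultures spread more (SD 0.11, 0.10 and 0.12 for GAS5, SNHG1 and SNHG5) than the untreated ones (SD 0.037, 0.030 and 0.048).

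SNHG6, host of SNORD87, had 5.73, 5.95 and 5.80 in doxycycline cultures, against 5.52, 5.58 and 5.63 in untreated cultures, a change of 0.25 with a gap of 0.10 between the groups. SNHG12, which holds H/ACA and C/D box snoRNAs, had 8.05, 8.07 and 8.04 in doxycycline cultures, against 7.80, 7.85 and 7.81 in untreated cultures. Its change of 0.23 was the smallest of the 8, and its cultures lay close together, with an SD of 0.011 in doxycycline cultures and 0.028 in untreated ones.

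The SNHG3 and SNHG7 units, both H/ACA hosts, were not higher. The SNHG3 unit, which shares its probe set with RCC1, the exchange factor of the GTPase RAN, had 7.69, 7.63 and 7.70 in doxycycline cultures, against 7.68, 7.65 and 7.70 in untreated cultures. The change was 0.00 with a 95% interval of -0.12 to 0.11 in the fit of all probe sets, which leaves out changes of the size seen in the 8 hosts for this probe set as a whole. SNHG7, host of SNORA17A and SNORA17B, had 6.76, 6.79 and 6.67 in doxycycline cultures, against 6.97, 6.80 and 6.82 in untreated cultures. Its groups were 0.01 apart, and groups apart with doxycycline lower were seen in 16.6% of annotated probe sets. The change of -0.12 did not pass the test (95% interval -0.28 to 0.03, limma adjusted p = 0.445).

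Whether the higher signals of the shared probe sets were called depended on the features they were tested with. Among all 70523 probe sets, none of the 7 units passed limma's test, with adjusted p of 0.0553 for GAS5 and SNHG1, 0.0786 for SNHG5, 0.0880 for SNHG12 and 0.184 for SNHG6, while 5 had an unadjusted p under 0.05. In that fit 0.264% of probe sets were called higher. Among the 25324 annotated probe sets, GAS5 and SNHG1 (limma adjusted p = 0.0107 each), SNHG12 (0.0162) and SNHG5 (0.0194) passed, and SNHG6 did not (0.0658). With ZFAS1, SNHG8 and EPB41L4A-AS1, 7 of the 10 hosts passed there, beside 3.28% of annotated probe sets called higher. None of the 10 was called lower there, beside 3.46% (SNHG7 had a limma adjusted p of 0.265). The unnamed probe sets that separate the fits were dim, with a median level of 3.45 against 5.57 for the annotated ones.

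Among annotated probe sets GAS5 and ZFAS1 passed whichever array was left out, with limma adjusted p of 0.0174 to 0.0498 for GAS5 and 0.0239 to 0.0498 for ZFAS1. SNHG1 lost it without untreated replicate 3 (limma adjusted p = 0.0542) or doxycycline replicate 3 (0.0537). SNHG5 lost it without untreated replicate 1 (limma adjusted p = 0.0698), 2 (0.0642) or 3 (0.0634) or doxycycline replicate 3 (0.0716). SNHG12 lost it without untreated replicate 1 (limma adjusted p = 0.0678) or 3 (0.0748) or doxycycline replicate 3 (0.0668). The count of 7 hosts was 2 without untreated replicate 3 and also without doxycycline replicate 3, and 4 without untreated replicate 1. The median change of the 10 stayed between 0.31 and 0.36 in these fits.

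**Figure D2:**
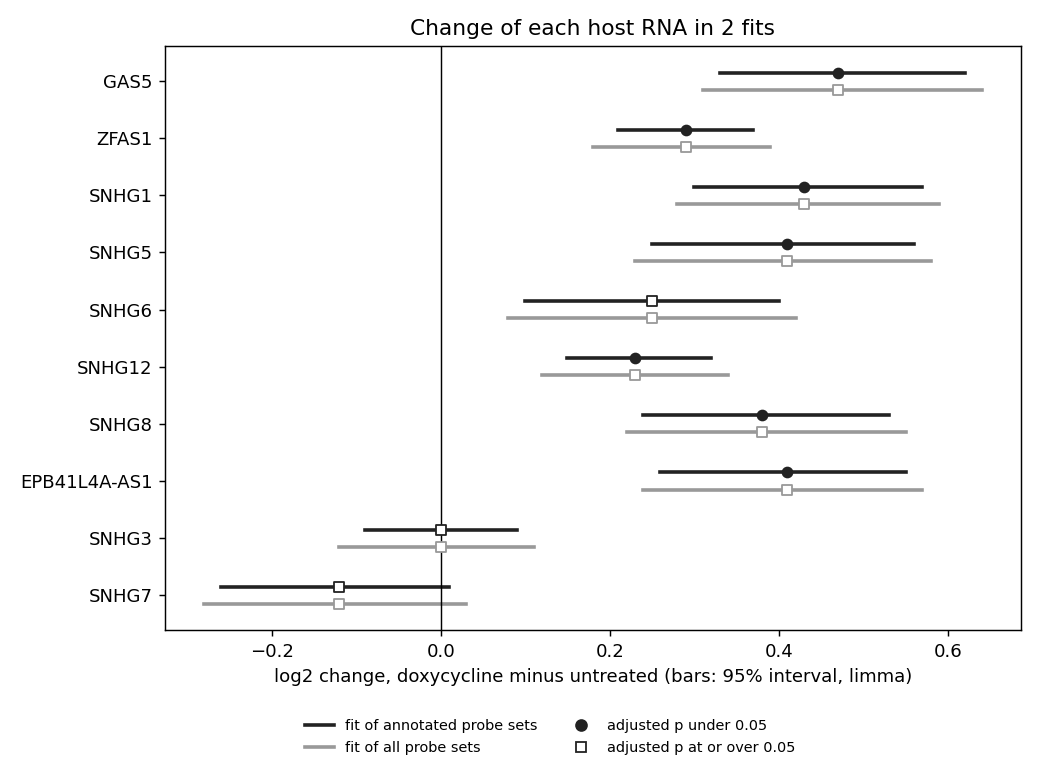
The log2 change of each host RNA, doxycycline minus untreated, with its 95% interval from limma among annotated probe sets (black) and among all probe sets (grey). Filled circles passed an adjusted p under 0.05 and open squares did not, so the 7 calls among annotated probe sets turn into 0 among all probe sets while the changes are the same.

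The treated cultures were not alike across the hosts. Doxycycline replicate 2 was the highest treated culture for 8 of the 10, and replicate 1 the lowest for 7. Replicate 2 was the highest treated culture in 28.2% of all genes and in 52.0% of the 665 genes that rose. The part of the treated cultures' own differences in the changes of the hosts was not tested beyond the fits that leave an array out. Among 11284 other genes at or above the median level, those most like ZFAS1 over the 6 arrays were ASNS, asparagine synthetase (Pearson r = 0.9989), PARP6, a member of the ADP-ribosyltransferase family (0.9977), and CLMN, calmin (0.9975). ASNS had a mean of 8.54 in doxycycline cultures and 8.14 in untreated cultures, a change of 0.40. These r values describe the closest of many genes, on arrays that fall into 2 groups, and carry no test.

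The snoRNAs themselves were compared with their hosts where they had a probe set apart from the host's. For GAS5, SNHG3 and SNHG12 the host value is that of the whole unit, whose probe set also names other snoRNAs (and RCC1 for SNHG3). All 34 snoRNAs assigned to the 10 hosts lie within their host in RefSeq's annotation. Of these, 25 were named by the host's own probe set and 9 had a separate one. None of the 9 passed limma's test among all genes (3 had an unadjusted p under 0.05, beside 9.86% of genes in the higher direction). All 9 had higher means in doxycycline cultures, as had 9436 of 22569 genes. Changes of the 9 ran from 0.01 to 0.30, with a median of 0.13. Without untreated replicate 1, SNORD78 was called (limma adjusted p = 0.0482), and up to 3 snoRNAs were called under other settings. The higher means rested in part on untreated replicate 2, which was the lowest of the 6 arrays for 8 of the 9 snoRNAs, against 12.8% of all genes. Without it 6 of the 9 had higher means, with changes of -0.16 to 0.27 and a median of 0.05. The RNA was purified with an RNeasy kit, whose columns are known to recover short RNAs less well than long ones. Any part of this recovery in the snoRNA values was not tested.

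SNORD75 and SNORD78, both from GAS5, were among the larger changes. SNORD75 had 6.58, 6.86 and 6.69 in doxycycline cultures, against 6.55, 6.35 and 6.33 in untreated cultures, a change of 0.30 (limma adjusted p = 0.0939). SNORD78 had a change of 0.25 (limma adjusted p = 0.0913), and SNORD99 from SNHG12 one of 0.22 (limma adjusted p = 0.0804). In each of these 3 snoRNAs the groups did not overlap, as in 12.5% of all genes in this direction. The 3 snoRNAs of ZFAS1 showed smaller differences from more variable values. SNORD12 had 8.08, 7.98 and 8.25 in doxycycline cultures, against 8.35, 7.78 and 8.15 in untreated cultures, a change of 0.01 with a 95% interval of -0.32 to 0.35. SNORD12B had a change of 0.04 and SNORD12C one of 0.12.

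Set against each other within each array, the host's change was larger than the snoRNA's in 8 of 9 pairs, and in 8 of 9 without untreated replicate 2. The 9 pairs are not separate observations. GAS5 is the host in the pairs with SNORD75 and SNORD78, and ZFAS1 in those with SNORD12, SNORD12B and SNORD12C. The difference in change was 0.25 (SE 0.091) for SNHG8 and SNORA24, 0.22 (SE 0.11) for GAS5 and SNORD78 and 0.17 (SE 0.065) for GAS5 and SNORD75, and in these 3 pairs the differences of the treated arrays lay apart from those of the untreated arrays. The exact two-sided permutation p was 0.1 for each of the 3, the smallest that 3 against 3 arrays allow. After Benjamini-Hochberg adjustment over the 9 pairs it was 0.3. No pair could have passed this test, so it cannot decide whether host and snoRNA changes differ. ZFAS1 exceeded SNORD12, SNORD12B and SNORD12C by 0.28, 0.25 and 0.17, EPB41L4A-AS1 exceeded SNORA13 by 0.27, and SNHG12 and SNORD99 differed by 0.01 (SE 0.085), all with overlapping groups. SNHG3 and SNORA73B, which takes part in the processing of ribosomal RNA, differed by -0.07 (SE 0.065).

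**Figure D3:**
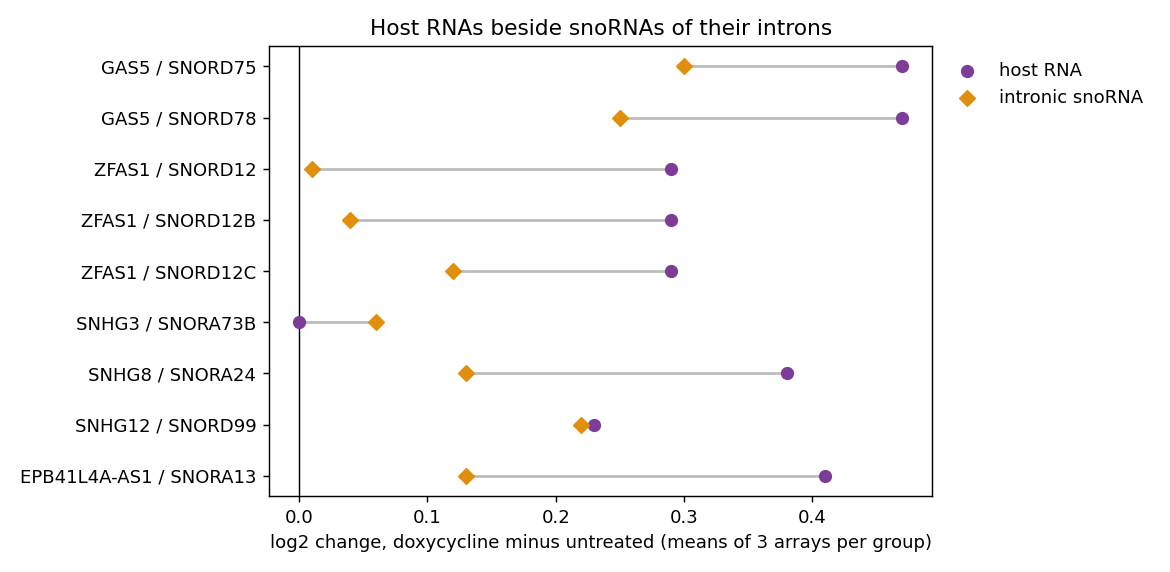
The log2 change, doxycycline minus untreated, of the host's probe set (circle) and of an intronic snoRNA with its own probe set (diamond), 1 row per pair. For GAS5, SNHG3 and SNHG12 the circle is the whole unit, whose probe set also names other snoRNAs. The host lies to the right of the snoRNA in 8 of the 9 rows. The GAS5 rows share the same host value, as do the ZFAS1 rows.

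Other noncoding hosts did not share one direction. Of 20 listed, 14 were measured, 7 with higher and 7 with lower means, and their median change among annotated probe sets was 0.00. DANCR, host of SNORA26 and the only one called among the 3 with their own probe set, fell, where 3.28% of all genes fell. DANCR had means of 6.84 in doxycycline cultures and 7.05 in untreated cultures (log2 change -0.20, SE 0.043, limma adjusted p = 0.0419). It lost the call in all 6 fits that left out an array, with limma adjusted p of 0.0615 to 0.138. SNHG21 did not pass (0.14, limma adjusted p = 0.0809). SNHG32 and SNHG29, named here after their values were seen, were the 2 units of the 14 called higher among annotated probe sets, of which 3.28% were. SNHG32, with SNORD48 and SNORD52, averaged 8.75 ± 0.033 in doxycycline cultures and 8.31 ± 0.047 in untreated cultures (SD, n = 3 each), a change of 0.44 (limma adjusted p = 0.00531 among annotated probe sets). That call passed whichever array was left out (0.0170 to 0.0364). The brightest of 5 probe sets naming SNHG32 was used, and its other probe sets are not described here. SNHG32 also passed among all probe sets (limma adjusted p = 0.0405), but that call was lost whichever array was left out, since no probe set was then called higher. SNHG29, with SNORD49A, SNORD49B and SNORD65, changed by 0.28 (limma adjusted p = 0.0109 among annotated probe sets), a call lost without untreated replicate 3 (0.0579) or doxycycline replicate 3 (0.0560).

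Protein-coding genes that host snoRNAs had smaller median changes, a difference that was not tested. Of 26 ribosomal protein hosts 23 were measured, with a median change of 0.10 among annotated probe sets and a highest of 0.23. Of these, 21 had higher means in doxycycline cultures, as had 10692 of 25324 annotated probe sets. RPL37, a protein of the large subunit, rose among all genes (0.23, SE 0.045, limma adjusted p = 0.0327), with a call kept only without doxycycline replicate 1 (0.0440) and limma adjusted p of 0.0710 to 0.118 in the other 5 fits. RPL12 did not pass (0.15, limma adjusted p = 0.0591). In the annotated fit 2 of the 23 were called higher, beside 3.28% of all annotated probe sets. These were RPL37 and RPS13, the latter in a probe set that also names a snoRNA (0.19, limma adjusted p = 0.0263, and 0.0505 to 0.107 when any array was left out).

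Of 24 measured coding hosts outside the ribosome, 12 had higher and 12 lower means, with a median of -0.01 among annotated probe sets. None of the 15 with their own probe set passed limma's test among all genes, with 7 at an unadjusted p under 0.05 (22.6% of all genes in either direction), EIF4G2 (-0.15, limma adjusted p = 0.0571) and CNOT1 (0.16, limma adjusted p = 0.0700) coming nearest. In the annotated fit 2 units were called higher and 1 lower, beside 3.28% and 3.46% of all annotated probe sets. TAF1D, a polymerase I initiation factor whose probe set also names snoRNAs and a microRNA, averaged 7.68 in doxycycline cultures and 7.15 in untreated cultures, a change of 0.53 (limma adjusted p = 0.0159). EIF4A2, a translation initiation helicase, changed by 0.32 (limma adjusted p = 0.0119) and HSPA8, a constitutive heat shock protein, by -0.23 (limma adjusted p = 0.0164). Their probe sets also name snoRNAs, and that of EIF4A2 a microRNA. Without doxycycline replicate 3, limma adjusted p was 0.0640 for TAF1D, 0.0539 for EIF4A2 and 0.0637 for HSPA8. Without untreated replicate 1, 2 or 3 it was 0.0642, 0.0524 and 0.0590 for TAF1D, 0.0532, 0.0462 and 0.0579 for EIF4A2, and 0.0678, 0.0501 and 0.0739 for HSPA8.

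Long noncoding RNAs that host no snoRNA included larger changes than any of the 10. Among 10 with their own probe set, 2 rose and none fell, with a median of 0.09, where 2.95% of all genes rose and 3.28% fell. MALAT1, an abundant nuclear RNA, averaged 10.70 in doxycycline cultures and 9.80 in untreated cultures, a change of 0.91 (SE 0.092, limma adjusted p = 0.00717). KCNQ1OT1, an imprinted antisense RNA, rose by 0.64 (limma adjusted p = 0.0101, and 0.0509 without doxycycline replicate 3) at 3.45 in doxycycline cultures and 2.81 in untreated cultures, under the olfactory receptor level. Among annotated probe sets 4 of 15 were called higher and none lower, with a median of 0.08, beside 3.28% and 3.46% of all annotated probe sets. Beside MALAT1 and KCNQ1OT1 these were NEAT1 and PVT1, named here after their values were seen. The scaffold RNA of paraspeckles, NEAT1, changed by 0.99 in a probe set shared with MIR612 (limma adjusted p = 0.00332). PVT1, in a probe set shared with MIR1204, changed by 0.23 (limma adjusted p = 0.0165, and 0.0305 to 0.0732 with an array left out).

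**Figure D4:**
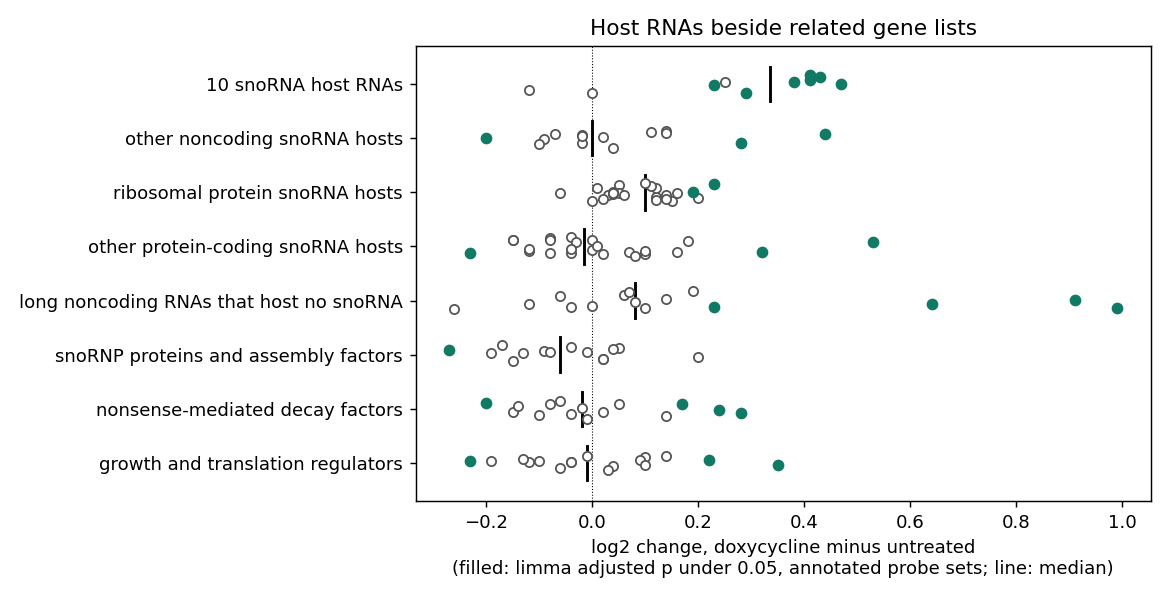
The log2 change, doxycycline minus untreated, of each measured member of the 10 hosts and of 7 related lists, 1 point per probe set, with a line at the median. Filled points passed limma's adjusted p under 0.05 among annotated probe sets. The medians are 0.34 for the 10 hosts, 0.00 for other noncoding hosts, 0.10 for ribosomal protein hosts and -0.01 for other coding hosts.

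Genes that act on host RNAs or on their snoRNAs changed in both directions. Of 14 proteins of snoRNA particles and their assembly, RUVBL1, an ATPase of the R2TP chaperone complex that helps to build C/D particles, fell (-0.27, SE 0.042, limma adjusted p = 0.0175), where 3.28% of all genes fell, and none rose (6 of the 14 had an unadjusted p under 0.05 by limma, beside 22.6% of all genes), with a median of -0.06. Its call was kept only without doxycycline replicate 1 (0.0440), with limma adjusted p of 0.0532 to 0.0708 in the other 5 fits. ZNHIT6, another assembly factor of C/D particles, did not pass (0.20, limma adjusted p = 0.0525). Of 15 measured factors of nonsense-mediated decay, 3 rose and 1 fell, with a median of -0.02, where 2.95% of all genes rose and 3.28% fell. NBAS (0.28, limma adjusted p = 0.0165), SMG9 (0.24, limma adjusted p = 0.0220), a partner of the kinase SMG1, and CASC3 (0.17, limma adjusted p = 0.0393), a peripheral component of the exon junction complex, rose, while EIF4A3 (-0.20, limma adjusted p = 0.0421), the RNA-binding core of that complex, fell. The central helicase UPF1 had a change of 0.02 (limma adjusted p = 0.887). None of these 4 calls was kept in every fit that left an array out. In those smaller fits 64 to 572 of all genes rose and 69 to 547 fell, beside 665 and 740 with all arrays. CASC3 and EIF4A3 lost theirs in all 6 fits that left an array out (limma adjusted p of 0.0702 to 0.128 and of 0.0720 to 0.131). NBAS kept its call only without doxycycline replicate 1 (0.0278, and 0.0501 to 0.0742 otherwise) and SMG9 only without doxycycline replicate 2 (0.0344, and 0.0515 to 0.0920 otherwise).

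Among 17 regulators of growth and translation, 2 rose and 1 fell, with a median of -0.01, beside 2.95% and 3.28% of all genes. DDIT4, an inhibitor of the growth kinase complex mTORC1, rose (0.35, SE 0.068, limma adjusted p = 0.0328), as did EIF2AK3, the kinase PERK that slows translation under stress of the endoplasmic reticulum (0.22, limma adjusted p = 0.0356). EIF4EBP2, a repressor of cap-dependent translation, fell (-0.23, limma adjusted p = 0.0220). DDIT4 kept its call only without doxycycline replicate 2 (0.0359, and 0.0587 to 0.113 otherwise). The other 2 kept theirs only without doxycycline replicate 1 (0.0441 for EIF2AK3, and 0.0609 to 0.127 otherwise, and 0.0461 for EIF4EBP2, and 0.0608 to 0.0860 otherwise). MYC (0.14, limma adjusted p = 0.178), MTOR (-0.10, limma adjusted p = 0.201), LARP1 (0.03, limma adjusted p = 0.687), which binds oligopyrimidine starts, and ATF4 (0.10, limma adjusted p = 0.232) did not pass. MYC, MTOR, LARP1, ATF4 and UPF1 were named for their roles and not by the size of their changes.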

How the data were processed

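Per the submitters' processing notes, RMA gave the log2 values that the authors deposited for every probe set and array. RMA subtracts background, equalises the arrays' distributions and summarises probes. The sources used here name no software version, build or annotation. Values ran from 0.485 to 14.2, with array medians of 4.12 to 4.17, and carry no detection call. The number of arrays limits the precision. Per the series' design text, all 6 cultures were independent.

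Of 70523 probe sets, 23781 carried 1 symbol in the platform's annotation, 1543 several and 45199 none. Symbols were updated through RefSeq (GRCh38.p14), after which 24027 named 1 gene, among them that of ZFAS1, listed also under its older name. The brightest probe set stood for each gene. Because 7 hosts had no probe set of their own, theirs were tested among all probe sets, and among annotated ones.

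limma 3.58.1 in R 4.3.3 (lmFit, eBayes) was used with treatment as the only term and Benjamini-Hochberg adjustment over all features of a fit. "Rose" and "fell" mean an adjusted p under 0.05, and intervals are 95% intervals of the fit. The procedure was tested on simulated data. Tables and figures were made with Python 3.11.15, pandas 2.3.3 and matplotlib 3.10.9. The hosts and lists were chosen with earlier results of these data known. Named genes were the 10 hosts, SLBP, snoRNAs with their own probe set, from each list the 2 genes of smallest adjusted p and at most 2 more called genes of largest change, and the 3 genes most like the host with the smallest adjusted p. Others are said to be chosen otherwise.

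Same-numbered cultures did not deviate together (r of 0.03, 0.00 and -0.02), so the numbers were not treated as pairs. Alternatives were other normalizations, background subtraction (5th percentile, floor of 16), a filter on dim features, other variance models, array weights, other uses of probe sets, a replicate block and each array left out.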

Additional observations from a re-analysis of the deposited data

How the results depend on the processing

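Same-numbered cultures did not deviate together, so the replicate block is given here alone. It left ZFAS1 called among all genes (adjusted p = 0.0487) and not SNHG8 (0.0732) or EPB41L4A-AS1 (0.0559), and among annotated probe sets ZFAS1 (0.0467) and SNHG1 (0.0491) but not GAS5 (0.0530). The median change of the 10 hosts lay between 0.31 and 0.36 under every alternative run, and SLBP between -0.81 and -0.72. Counts of calls moved more. Of the 3 hosts with their own probe set, 3 rose under all alternatives but the replicate block (1), every probe set tested on its own (0) and leaving out an array (0 to 3). Of the 7 shared units none rose among all probe sets, against 1 with repeated quantile normalization, 4 each with background subtraction, without dim features and with trend and robust settings, and 2 with array weights. They numbered 0 with every array left out. Of all 10, 7 rose among annotated probe sets, 2 with the replicate block and 2 to 7 with an array left out. Of the 9 snoRNAs with their own probe set none rose, against 2 with repeated quantile normalization, 3 each without dim features and with array weights, and 1 each with background subtraction, with trend and robust settings and without untreated replicate 1. SNHG3, just below 0, changed sign, with 0.00 under repeated quantile normalization, 0.01 under median centring, 0.00 under array weights (0.01 among annotated probe sets) and -0.02 to 0.02 with an array left out, beside 0.00 in the report.

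Over all genes 665 rose and 740 fell. These were 1037 and 1142 with background subtraction, 1170 and 1420 without dim features, 1518 and 1712 with array weights, 161 and 180 with the replicate block, 66 and 64 with every probe set on its own, and 64 to 572 and 69 to 547 with an array left out. In 88 genes of the comparison lists 8 rose and 4 fell. These were 13 and 8 with background subtraction, 17 and 10 without dim features, 14 and 8 with trend and robust settings, 19 and 14 with array weights, 1 and 0 with the replicate block, 2 and 0 with every probe set on its own, and 1 to 7 and 0 to 2 with an array left out. Fits without an array have fewer samples. The cause of the other shifts was not tested.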
